A study of Mus musculus with 4 samples.

Results

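Immediate early genes were followed on 4 Affymetrix mouse arrays as the 12 probe sets whose only annotated symbol is Fos, Fosb, Junb, Egr1, Egr3, Arc, Nr4a1, Dusp1, Ier2 or Btg2. A probe set combines several short oligonucleotides of a transcript into 1 reading, and these 12, which cover all 10 genes, are part of 45101 on the array. The RNA behind each array was total RNA, labelled as coming from brain, hindbrain and spinal cord of the mouse. The arrays form 2 preparations: cDNA amplified with a Nugen kit (2 arrays) and antisense RNA (aRNA) from T7-based amplification (2 arrays). Within each preparation 1 array is numbered 1 and the other 0. What the numbers stand for is not stated in the labels, nor are the strain, age, sex, treatment and number of animals behind each RNA. Any difference between arrays 1 and 0 may therefore be one of animals, of treatment or of handling. Whether the 2 preparations used the same RNA is not stated either, so preparation and sample cannot be told apart.

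Immediate early genes are transcribed within minutes of a stimulus, before new protein is made, when kinase cascades activate transcription factors already bound at their promoters, among them serum response factor with its partners and CREB, which binds the cAMP response element. In neurons they are widely used as marks of recent activity, and in glia and vessel cells they also respond to injury and stress. Fos, Fosb and Junb encode subunits of the AP-1 factor, Egr1 and Egr3 zinc finger factors, and Nr4a1 an orphan nuclear receptor. Arc encodes a synaptic protein, Dusp1 a phosphatase that switches off MAP kinases, Ier2 a nuclear protein, and Btg2 an antiproliferative factor. Most of their transcripts are short-lived.

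The genes are compact. In the RefSeq table (GRCm38.p6) 9 of the 10 spanned fewer bases than the median protein-coding gene, and their median span was 3620 bases, against 17149 bases over 21896 protein-coding genes. Nr4a1 (20894 bases) was the exception. Promoter sequences from RefSeq (GRCm38.p6), each covering 250 bases before to 50 bases after an annotated start, were found for 6 members (Fos, Fosb, Junb, Nr4a1, Dusp1 and Btg2). The 250 bases before the start are printed 5′ to 3′ for Fos, Dusp1 and Btg2, because these were the members with a promoter entry that differed between the preparations. Capitals mark the cAMP response element TGACGTCA, its core TGACG on either strand, and the TATA box TATAAA on the gene's strand. They lie at chr12:85473640-85473889 on the plus strand (Fos), chr17:26508473-26508722 on the minus strand (Dusp1) and chr1:134079156-134079405 on the minus strand (Btg2).
Fos: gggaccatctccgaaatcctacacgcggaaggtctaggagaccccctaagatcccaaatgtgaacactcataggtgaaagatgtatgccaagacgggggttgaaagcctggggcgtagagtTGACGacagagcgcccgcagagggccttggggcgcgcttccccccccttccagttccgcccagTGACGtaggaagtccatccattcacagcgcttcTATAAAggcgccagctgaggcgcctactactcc
Dusp1: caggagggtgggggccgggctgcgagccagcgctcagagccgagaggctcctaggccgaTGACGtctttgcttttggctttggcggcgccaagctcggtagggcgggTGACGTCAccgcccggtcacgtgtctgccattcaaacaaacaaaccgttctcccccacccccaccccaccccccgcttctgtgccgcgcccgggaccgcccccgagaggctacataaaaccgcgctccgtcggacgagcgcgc
Btg2: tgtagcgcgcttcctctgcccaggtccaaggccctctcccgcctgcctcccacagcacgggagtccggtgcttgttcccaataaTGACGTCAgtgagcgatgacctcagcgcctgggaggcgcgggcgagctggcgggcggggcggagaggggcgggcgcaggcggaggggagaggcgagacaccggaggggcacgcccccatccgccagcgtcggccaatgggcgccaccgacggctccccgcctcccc

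Every one of the 6 windows held at least 1 core TGACG, which 20.8% of the 32851 promoters in the table hold. The whole element TGACGTCA, which contains a core on each strand, was present in Dusp1 (starting 143 bases before the start) and Btg2 (166 bases before), against 1.79% of all promoters. Fos had cores starting 129 and 66 bases before its start and a TATA box 33 bases before it. The letters of a TATA box were found in 2 of the 6 windows (8.32% of all promoters). In Junb they began at the annotated start itself, not before it. The EGR site GCGNGGGCG was found in Btg2, Fosb and Nr4a1 (5.55% of all promoters). Neither the CArG box of serum response factor (1.63% of all promoters) nor the AP-1 site TGANTCA (7.81%) was matched in these 6 windows. All motifs but the TATA box were searched on both strands, and a match describes only the letters of the window. The 6 windows had a median GC content of 67.7%, against 52.7% over all promoters, and the motif shares were not adjusted for it.

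**Figure D1:**
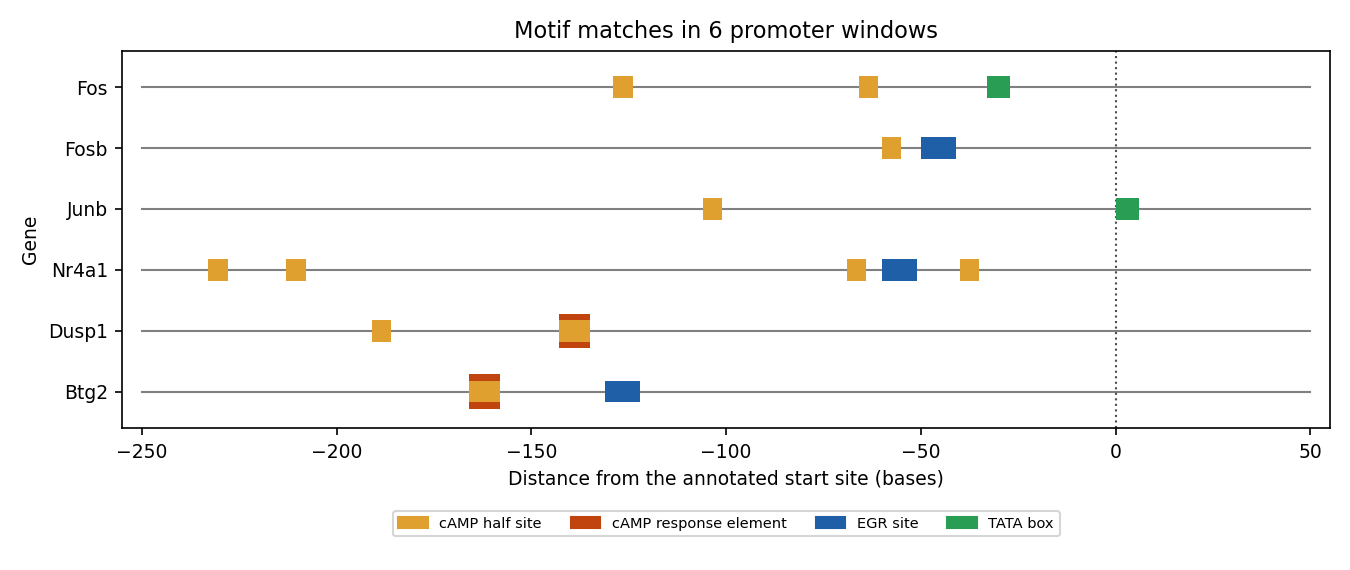
Matches of 4 motifs in the promoter windows of 6 immediate early genes. The horizontal axis is the distance in bases from the annotated start site (dotted line) and each grey line is 1 window. Taller red boxes mark the whole cAMP response element of Dusp1 and Btg2, which encloses 2 cores, and every window has at least 1 core.

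Values were deposited as linear intensity, already scaled to an equal 2% trimmed mean of 2500.02 on each array, and differences are given on the scale log2(intensity + 16), which understates the change of dim probe sets. An array's background level was the 95th percentile of 27 control probe sets for Bacillus transcripts, an intensity of 249 and 212 on cDNA arrays 1 and 0, against 126 and 123 on aRNA arrays 1 and 0. The array aRNA 0 stood apart in sex-linked transcripts, with Xist (1436936_s_at) at 8.55 against 11.94 to 15.44 on the other 3 arrays and Eif2s3y (1417210_at) at 13.12 against 4.75 to 7.92. The differences of members between the preparations and the counts of calls are therefore also given without it, and differences between the numbers are given within cDNA, which does not use it. The 3' minus 5' difference of the Gapdh controls, which falls as target covers more of the transcript, was 2.05 and 3.38 on cDNA arrays 1 and 0, against 3.22 and 2.39 on aRNA arrays 1 and 0. Its part in the results was not tested. The arrays are bulk samples, so fewer cells of a type and less RNA per cell cannot be told apart.

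Of the 12 probe sets, 5 lay above background on all 4 arrays: Fos, Junb, Egr1, Dusp1 and the Btg2 probe set 1448272_at. The other 7 lay under it on at least 1 array, as did 52% of all 45037 probe sets that are not controls. The array cDNA 0 was the lowest for 6 of the 12, a count that was not compared with all probe sets. A filter on the mean level over the 4 arrays (at or above 8.38, the median of all probe sets) left 8 probe sets of 7 members in the tests. Fosb, Ier2 and both probe sets of Egr3 were too dim for it, and a dim probe set could pass only through arrays on which it was bright. In this way Btg2 1416250_at (mean 7.03 on cDNA) and Nr4a1 (8.25 on cDNA) passed through aRNA, and Arc (7.82 on aRNA) passed through cDNA.

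**Figure D2:**
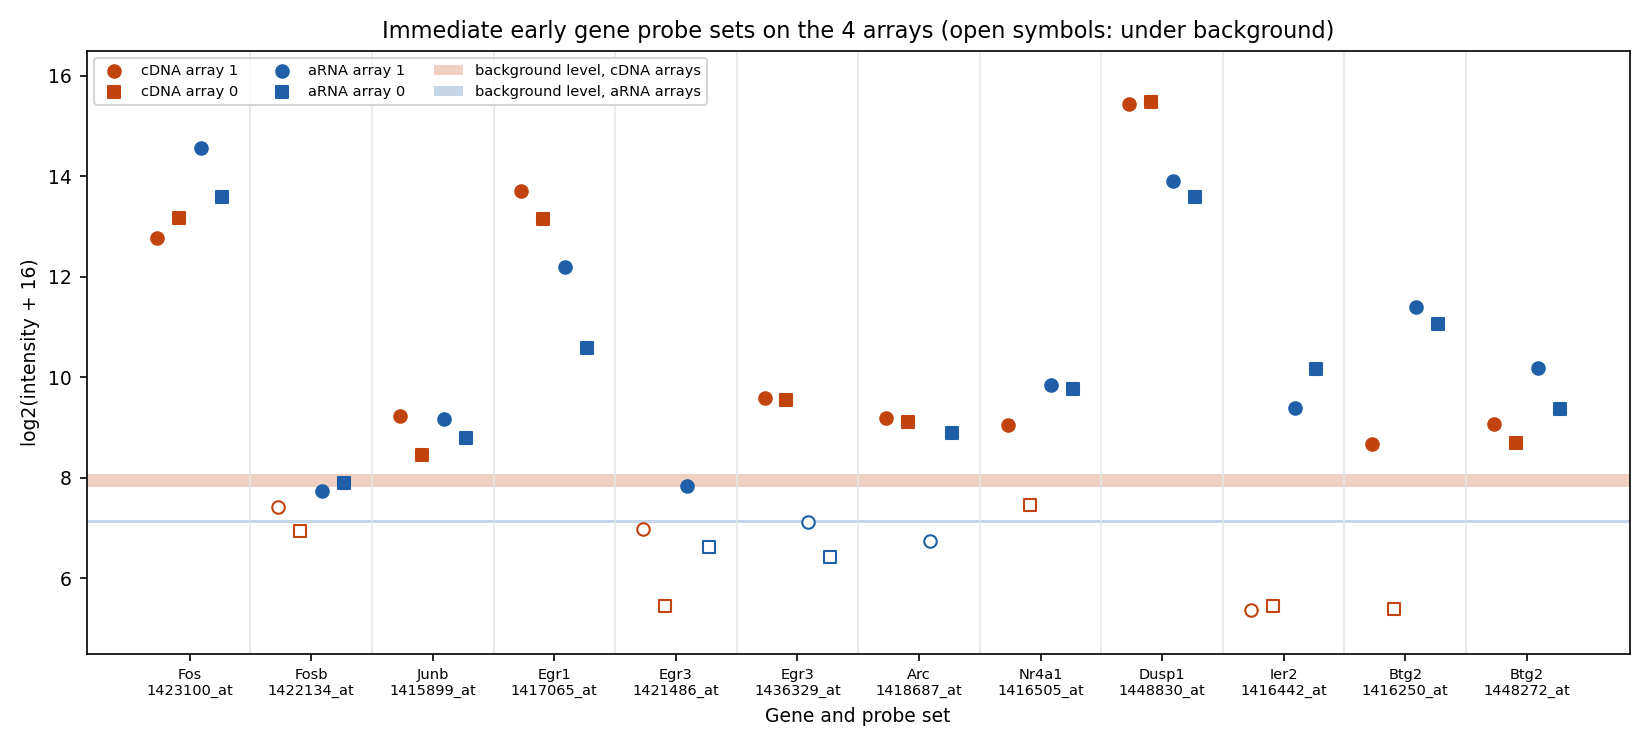
Level of each immediate early gene probe set, as log2(intensity + 16), on cDNA array 1 (red circles), cDNA array 0 (red squares), aRNA array 1 (blue circles) and aRNA array 0 (blue squares). Horizontal bands span the background levels of the 2 arrays of each preparation, and open symbols lie under their own array's level. Fos, Egr1 and Dusp1 stand far above background on every array, and Ier2 lies under it on both cDNA arrays.

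The first comparison set the cDNA arrays against the aRNA arrays. The members did not differ in 1 direction. Egr1 and Dusp1 were higher on cDNA, Fos and Btg2 (at 1 of its 2 probe sets) were lower, and Junb, Nr4a1 and Arc did not pass the test. Of the 8 probe sets tested, 2 were called higher on cDNA at a limma adjusted p under 0.05, against 20.2% of all 22519 probe sets tested, and 2 lower, against 22.9% (4 of 8 in either direction, against 43.2%). Without aRNA array 0 the counts were again 2 and 2, against 16.2% and 15.5% of all. The median difference of the 8 was −0.52 and that of all probe sets tested −0.11. The median size regardless of direction was 1.44 for the 8 and 0.88 for all tested. The shares called do not set the members apart from the array as a whole. Every p-value here measures only the spread between these arrays, which may be technical within cDNA. The 2 aRNA arrays differed in Xist and Eif2s3y, so their spread cannot be taken as technical alone. With 2 arrays against 2 an exact two-sided permutation test cannot go below p = 0.333, so none was run.

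Among the AP-1 subunits, Fos (1423100_at) had an intensity of 7021 and 9170 on cDNA arrays 1 and 0, against 24323 and 12289 on aRNA arrays 1 and 0. Both cDNA arrays lay under both aRNA arrays. The mean was 12.97 ± 0.27 on cDNA and 14.08 ± 0.70 on aRNA (log2, SD, n = 2 each), a difference of −1.11 ± 0.33 (SE, limma adjusted p = 0.0262). This call was lost without cDNA array 1 (−0.91, limma adjusted p = 0.116) or aRNA array 1 (−0.61, limma adjusted p = 0.165), and kept without aRNA array 0 (−1.60, limma adjusted p = 0.00191).

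Junb (1415899_at) gave 581 and 334 on cDNA arrays 1 and 0, against 563 and 427 on aRNA arrays 1 and 0. The preparations overlapped, with the highest and the lowest value both on cDNA, and the difference was −0.15 ± 0.52 (SE, limma adjusted p = 0.837; −0.34 without aRNA array 0). Fosb (1422134_at), the subunit with a long-lived splice form in brain, read 155 and 107 on the cDNA arrays 1 and 0, under background, against 196 and 222 on the aRNA arrays 1 and 0, above it (−0.63, and −0.55 without aRNA array 0). The background level of the cDNA arrays (249 and 212) was itself about as high as the aRNA readings, so no fold is given for Fosb.

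Of the zinc finger factors, only Egr1 was tested, and it went the other way from Fos. Egr1 (1417065_at), which is expressed in many neurons without added stimulus, had an intensity of 13326 and 9067 on cDNA arrays 1 and 0, against 4653 and 1520 on aRNA arrays 1 and 0. All 4 readings were far over background and the groups did not overlap. The mean was 13.43 ± 0.39 on cDNA and 11.39 ± 1.13 on aRNA (log2, SD, n = 2 each), a difference of 2.04 ± 0.48 (SE) or 4.11-fold (limma adjusted p = 0.00866). The size rested on the aRNA arrays: it was 1.24 without aRNA array 0 (limma adjusted p = 0.0162) and 2.84 without aRNA array 1 (limma adjusted p = 0.000101).

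The 2 probe sets of Egr3 disagreed. At 1436329_at the cDNA arrays 1 and 0 read 755 and 737, above background, and the aRNA arrays 1 and 0 read 124 and 69.9, under it. The fold was at least 5.43-fold higher on cDNA, with each dim aRNA array raised to its background level, and at least 5.38-fold without aRNA array 0. At 1421486_at the order was reversed, 111 and 27.4 on cDNA arrays 1 and 0 against 212 and 82.3 on aRNA arrays 1 and 0, but only aRNA array 1 was above background, so this probe set gives no fold (measured difference −1.01, and −1.62 without aRNA array 0). Neither entered the main test.

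Nr4a1 (1416505_at) had 513 and 160 on cDNA arrays 1 and 0, against 902 and 852 on aRNA arrays 1 and 0. The aRNA arrays lay close together, and cDNA array 0 was under background, so the gene was at least 2.57-fold lower on cDNA. The measured difference was −1.55 ± 0.60 (SE) and missed the threshold (limma adjusted p = 0.0641; −1.59 and 0.186 without aRNA array 0). It rested on cDNA array 0, without which it was −0.76 (limma adjusted p = 0.226), or 1.69-fold.

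Arc (1418687_at), whose RNA travels into dendrites, had 569 and 538 on cDNA arrays 1 and 0, against 91.7 and 457 on aRNA arrays 1 and 0. The single low reading, on aRNA array 1, was under background, while aRNA array 0 was near the cDNA arrays. The difference of 1.33 ± 0.73 (SE, limma adjusted p = 0.169) shrank to 0.27 without aRNA array 1 and was 2.40 without aRNA array 0 (limma adjusted p = 0.052).

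Of the feedback regulators, Dusp1 (1448830_at) read 44593 and 45696 on cDNA arrays 1 and 0, against 15254 and 12285 on aRNA arrays 1 and 0. Replicate arrays differed little and the groups did not overlap. The mean was 15.46 ± 0.02 on cDNA and 13.74 ± 0.22 on aRNA (log2, SD, n = 2 each), a difference of 1.72 ± 0.21 (SE) or 3.29-fold (limma adjusted p = 0.000325). It stayed between 1.56 (without aRNA array 0) and 1.88 with any 1 array left out.

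Ier2 (1416442_at) read 25.2 and 27.4 on cDNA arrays 1 and 0, against 653 and 1138 on aRNA arrays 1 and 0. Both cDNA readings were far under background and both aRNA readings well over it, so Ier2 was at least 3.58-fold lower on cDNA, and at least 2.72-fold without aRNA array 0. Its mean was too low for the main test. With no filter, Ier2 was called lower (limma adjusted p = 0.00483) and Egr3 1436329_at higher (limma adjusted p = 0.0199), while Fos missed the threshold (limma adjusted p = 0.051). In that fit 3 of the 12 probe sets were called higher and 2 lower, against 10.4% and 10.8% of all 45037 (21.2% in either direction).

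Btg2 has a pair of probe sets that moved in the same direction by unlike amounts. At 1416250_at it had 393 and 25.7 on cDNA arrays 1 and 0, against 2688 and 2134 on aRNA arrays 1 and 0. The cDNA arrays were far apart, with array 0 under background. Btg2 was at least 7.9-fold lower on cDNA (measured difference −4.21 ± 0.91, SE, limma adjusted p = 0.00587). Its cDNA mean was under the filter, so this p comes from a probe set that passed only through aRNA. With no filter it was also called (limma adjusted p = 0.0174). The difference was −2.56 without cDNA array 0, −5.85 without cDNA array 1 and −4.37 without aRNA array 0, called each time. At 1448272_at Btg2 had 520 and 396 on cDNA arrays 1 and 0, against 1145 and 643 on aRNA arrays 1 and 0. The groups did not overlap, but the difference was −0.90 ± 0.49 (SE) and did not pass (limma adjusted p = 0.168). Without aRNA array 0 it was −1.30 and again did not pass.

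**Figure D3:**
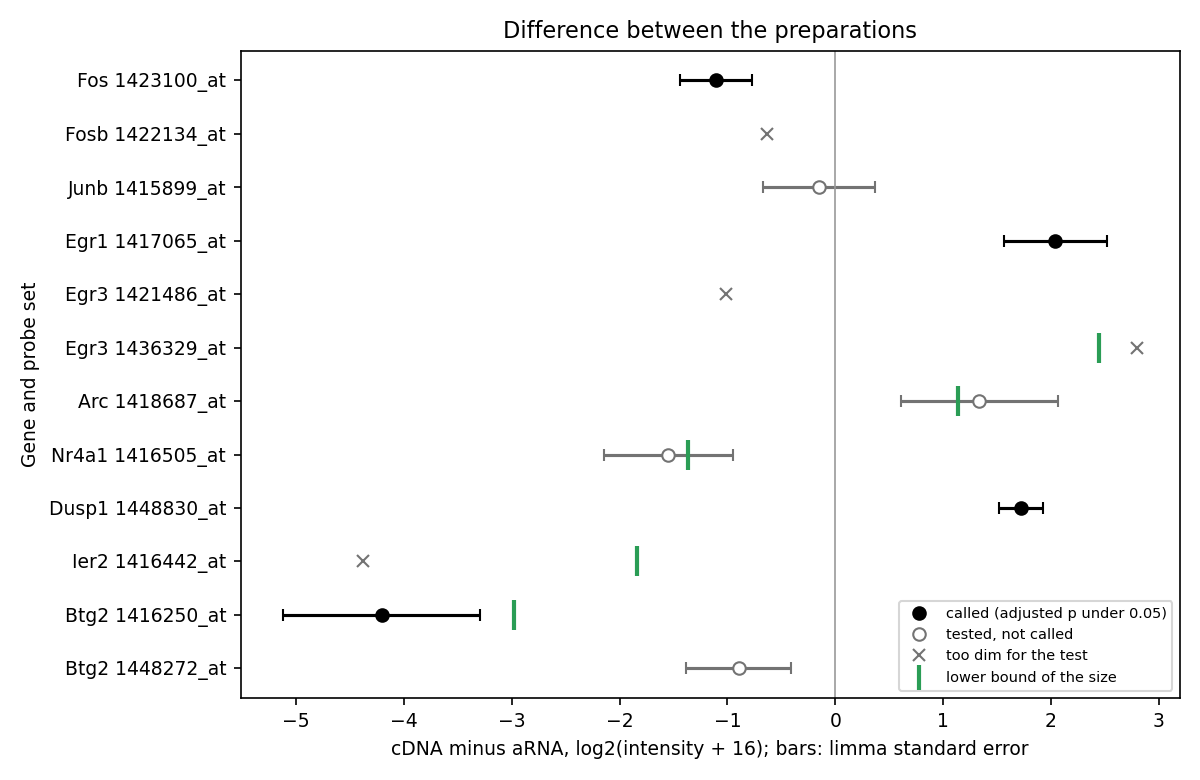
Difference between cDNA and aRNA for each probe set, on the log2(intensity + 16) scale, with positive values higher on cDNA. Filled circles passed the test, open circles did not, bars are limma standard errors, crosses were too dim for the test, and green ticks are lower bounds where an array of the dimmer preparation was under background. Egr1 and Dusp1 lie right of 0, Fos and Btg2 1416250_at left of it.

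Counted over arrays, 10 of the 12 probe sets had preparations that did not overlap, 4 with cDNA higher and 6 with cDNA lower. Among all 45037 probe sets that are not controls, the preparations did not overlap for 61.6%, with cDNA higher for 31% and lower for 30.6%. Junb and Egr3 1421486_at were the 2 with overlap.

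The second comparison set arrays numbered 1 against arrays numbered 0. No immediate early member passed the test. In the fit with preparation as a term, limma called 0 of the 8 probe sets tested, against 0.0622% of all 22519 (14 probe sets). At an unadjusted p under 0.05 there were 2 of the 8, against 5.86% of all: Egr1 (1.08 ± 0.33, SE, limma adjusted p = 0.693) and Btg2 1416250_at (1.81 ± 0.67, SE, limma adjusted p = 0.779). The other 6 had a limma adjusted p between 0.88 and 0.964. The differences below are between single arrays within a preparation and carry no test.

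Egr1 was higher on number 1 in both preparations, 1.47-fold within cDNA and 3.04-fold within aRNA. Its intensities of 13326 (number 1) and 9067 (number 0) on cDNA, and 4653 (number 1) and 1520 (number 0) on aRNA, were all above background. Junb was 1.71-fold higher on number 1 within cDNA and 1.31-fold within aRNA. Btg2 1448272_at was 1.3-fold and 1.76-fold higher in the same order. These 3 probe sets are the ones that were higher on number 1 in both preparations and above background throughout.

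Nr4a1 and Btg2 1416250_at also had positive differences in both preparations, but nearly all of each came from the cDNA pair. Nr4a1 was at least 2.32-fold higher on number 1 within cDNA, with array 0 under background, and 1.06-fold within aRNA. Btg2 1416250_at was at least 1.8-fold higher within cDNA and 1.26-fold within aRNA. Egr3 1421486_at was at least 1.64-fold higher on number 1 between the aRNA arrays and under background on both cDNA arrays. Its other probe set, 1436329_at, differed by 0.03 between the cDNA arrays and was under background on both aRNA arrays.

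Fos, a widely used activity mark, took opposite directions. It was 1.31-fold lower on number 1 within cDNA (7021 on array 1, 9170 on array 0) and 1.98-fold higher within aRNA (24323 on array 1, 12289 on array 0). Arc differed by 0.08 between the cDNA arrays and was at least 3.34-fold lower on number 1 between the aRNA arrays. Dusp1 differed by −0.04 and 0.31. Fosb differed by 0.47 between the cDNA arrays, both under background, and by −0.17 between the aRNA arrays. Ier2 was 1.73-fold lower on number 1 between the aRNA arrays, and under background on both cDNA arrays.

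Of the 12 probe sets, 7 were higher on number 1 in both preparations, 1 lower in both and 4 opposite, against 25.2% of all 45037 higher in both and 25.5% lower in both. Taken singly, 9 of the 12 were higher on number 1 within cDNA (50.5% of all) and 9 within aRNA (49.2% of all). The count holds 2 genes by both of their probe sets and 4 probe sets with a reading under background. A difference of at least 2-fold toward number 1 was seen for 3 of the 12 between the cDNA arrays (16% of all 45037) and for 2 between the aRNA arrays (10.8% of all). It was seen in both preparations for Egr3 1421486_at alone (2.55% of all), which was under background on 3 of the 4 arrays. At least 2-fold toward number 0 there were 0 of the 12 within cDNA (15.7% of all) and 1 within aRNA, Arc (10.5% of all). The median difference was 0.59 over the 8 probe sets tested and −0.01 over all tested.

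**Figure D4:**
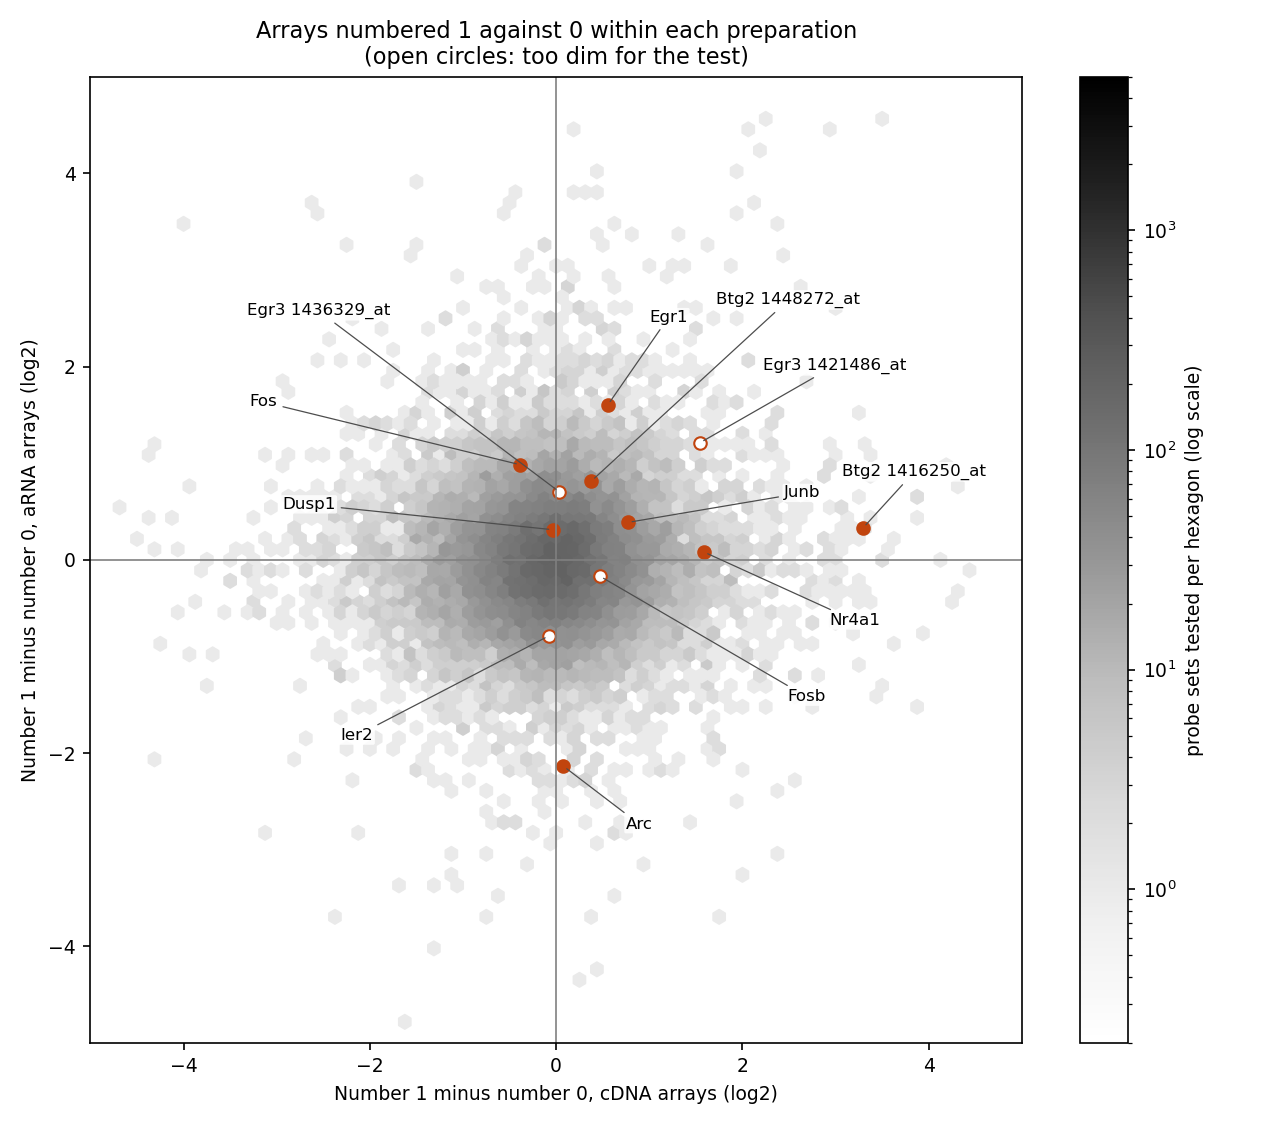
Difference between arrays 1 and 0 on the log2(intensity + 16) scale, within the cDNA arrays on the horizontal axis and within the aRNA arrays on the vertical axis. Grey hexagons hold all 22519 probe sets tested (13 lie outside the axes), and labelled circles are the immediate early probe sets, open where they were too dim for the test. Egr1, Junb and both Btg2 probe sets lie above 0 on both axes, Fos at the upper left and Arc low on the vertical axis.

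Other genes of the same response were taken from 2 lists. Of 18 further immediate early transcription factors tested (22 listed), 5 were higher on cDNA, 2 lower and 11 not called, with a median difference of 0.37 against −0.11 over all probe sets tested. Over all probe sets tested 20.2% were higher and 22.9% lower. Without aRNA array 0 the list had 4 higher and 3 lower, while those lower numbered 0 without aRNA array 1, 1 without cDNA array 0 and 5 without cDNA array 1. Jund, an AP-1 subunit and partner of Fos, was higher by 2.54 (limma adjusted p = 6.69e-05), and Klf10 by 2.25. Egr2, the sister gene of Egr1 and Egr3, was at least 4.91-fold higher (limma adjusted p = 0.0113), a call lost without aRNA array 0 (1.77, limma adjusted p = 0.0689) or cDNA array 0 (2.06, limma adjusted p = 0.0577). Per1, a clock gene, differed by −1.77 and Csrnp1 by −1.58, and neither passed without aRNA array 1 (−1.67 with limma adjusted p = 0.0508 for Per1, −1.04 with limma adjusted p = 0.188 for Csrnp1). Csrnp1 also missed without cDNA array 0 (−1.31, limma adjusted p = 0.0663). Of the genes named here, Egr2 passed the filter only through cDNA. With no filter Egr2 was also called (limma adjusted p = 0.0343). Jund and Fos, which can share an AP-1 dimer, were called in opposite directions.

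Between the numbers 1 of these 18 was called, against 0.0622% of all probe sets tested. This was Atf3, a stress-induced factor that is a marker of injured neurons. It was higher on number 1 by 2.44 between the cDNA arrays and by 3.48 between the aRNA arrays (limma adjusted p = 0.0439). This call was lost with median centring (limma adjusted p = 0.0666), with pseudocount 64 (limma adjusted p = 0.0749), with no intensity trend (limma adjusted p = 0.924) and with no preparation term (limma adjusted p = 1). The list's median was 0.35, against −0.01 over all tested, and 10 of the 18 were higher on number 1 in both preparations (25.2% of all probe sets). Whether the difference of Atf3 is unlike that of Fos was not tested.

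Of 25 further immediate early effectors and regulators tested (33 listed), 6 were higher on cDNA, 6 lower and 13 not called (median −0.29), against 20.2% higher and 22.9% lower over all. Without aRNA array 0 there were 4 and 4. Ccn2, a matricellular protein gene, was higher by 2.45 and Spry2, an inhibitor of receptor kinase signalling, by 2.18. Ccn1 was at least 5.2-fold higher at its probe set 1416039_x_at, a call lost without aRNA array 0 (limma adjusted p = 0.0876), without cDNA array 0 (limma adjusted p = 0.188) and with no filter (limma adjusted p = 0.0634). Plat, which encodes tissue plasminogen activator, was lower by −2.41 and the kinase gene Plk3 at least 4.06-fold lower, a call lost without aRNA array 0 (limma adjusted p = 0.0502) or aRNA array 1 (limma adjusted p = 0.0801). The limma adjusted p of these 5 lay between 0.000275 and 0.0245. Of the 5, Ccn1 passed the filter only through cDNA and Plk3 only through aRNA. With no filter Plk3 was also called (limma adjusted p = 0.0257). None of the 25 was called between the numbers by limma, with 3 at an unadjusted p under 0.05 (5.86% of all probe sets). Those with the smallest p were the kinase gene Sgk1 (0.81, limma adjusted p = 0.541) and Vgf, a neuropeptide precursor gene (0.95, limma adjusted p = 0.7). Sgk1 differed by 0.58 within cDNA and 1.04 within aRNA, and Vgf by 0.08 within cDNA and 1.81 within aRNA.

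Of 25 tested genes that carry the signal to these promoters (31 listed), 11 were higher on cDNA, 3 lower and 11 not called (median 0.69), against 20.2% higher, 22.9% lower and a median of −0.11 over all. Without aRNA array 0 there were 9 and 3. They included the kinase gene Camk4 (2.88), the serum response factor partners Elk1 (2.23) and Elk3 (2.18), and the kinase gene Rps6ka5 (2.22). Map2k2, a kinase upstream of ERK, was lower by −2.16. None was called between the numbers by limma, with 2 at an unadjusted p under 0.05 (5.86% of all probe sets). Mapk8 at −0.76 (limma adjusted p = 0.787) and Prkaca at 0.44 (limma adjusted p = 0.808) were closest. Within cDNA Mapk8 differed by −0.87 and Prkaca by 0.43.

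Cell type markers differed by list and by comparison, and their part in the values above was not tested. Neuron markers, which bear on the tissue label, were all above background on every array. Their summed intensity was 785860 and 684624 on cDNA arrays 1 and 0, against 734074 and 672739 on aRNA arrays 1 and 0. Over all probe sets tested 20.2% were called higher on cDNA and 22.9% lower. Between the preparations 1 of 10 neuron markers was higher on cDNA and 1 lower. Endothelial and pericyte markers were higher on cDNA for 5 of 7 and lower for none, with sums of 45309 and 80413 on cDNA arrays 1 and 0 against 21544 and 20828 on aRNA arrays 1 and 0. Astrocyte markers were higher for 2 and lower for 2 of 8, oligodendrocyte markers for 1 and 2 of 7, microglial and macrophage markers for 1 and 1 of 10, and blood cell markers for 2 and 0 of 3. The 2 were the neutrophil genes S100a8 and S100a9, at least 44.6-fold and 51.1-fold higher on cDNA. Both were under background on the aRNA arrays and passed the filter only through cDNA. Without aRNA array 0 the counts were the same, except that 3 astrocyte and 3 microglial markers were lower. Without aRNA array 1, 5 of the 10 microglial markers were higher and 0 lower. Between the numbers, microglial and macrophage markers summed to 81702 (cDNA) and 84943 (aRNA) on number 1 arrays, against 49605 (cDNA) and 13426 (aRNA) on number 0 arrays. At an unadjusted p under 0.05 there were 7 of their 10 tested genes, against 5.86% of all probe sets tested. Of the 10, 2 were called higher on number 1, against 0.0622% of all called in either direction. They were Tyrobp (1.95 within cDNA, 3.53 within aRNA) and C1qa (2.57 within cDNA, 2.82 within aRNA). Both calls were lost with no intensity trend (limma adjusted p = 0.924) and with no preparation term (limma adjusted p = 1). No gene of the other 5 marker lists was called between the numbers by limma. At an unadjusted p under 0.05 there were 9, against 5.86% of all probe sets tested. They were 4 of 8 astrocyte, 3 of 3 blood cell, 1 of 10 neuron and 1 of 7 oligodendrocyte markers, with 0 of 7 endothelial and pericyte markers. Among the 9 was the astrocyte gene Gfap (3.20, limma adjusted p = 0.265), which differed by 1.14 within cDNA and 5.27 within aRNA. No marker was listed at 0 on any array, which does not show presence: the blood cell gene Alas2 was under background on all 4.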

How the data were processed

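The authors' deposited intensity values are linear, 1 per probe set and array, with an equal 2% trimmed mean on each array, and were kept as they stand. No label or file names the summarising software. Symbols came from the platform annotation, updated through a RefSeq gene table (34741 of 34945 probe sets with 1 symbol matched). No gene was named from the 932 that carry several symbols. Of the 150 genes of the 10 lists, 141 had a probe set, and the one with the highest mean stood for a gene.

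The values were taken as log2(intensity + 16), without the 64 control probe sets, and tested with limma (version 3.58.1, R version 4.3.3) by lmFit and eBayes. The prior variance followed the intensity, and p-values were adjusted by Benjamini and Hochberg over 22519 probe sets at a threshold of 0.05. The fit of the preparations left 2 residual degrees of freedom, and that of the numbers, with preparation as a term, 1. Bounds raise each dim array to its background level, averaged on the log2 scale. In simulated data on 22519 probe sets, a log2 change of 2 was called for 63% of changed probe sets between preparations and 78.5% between numbers. A change of 1 was called for 0% and 2%. Far fewer probe sets were changed there than the 43.2% called between the preparations, so the preparation shares do not carry over to these data. In the number setting 41 unchanged probe sets were also called at a change of 2, so its adjusted p can be too small.

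Alternatives were median centring, quantile normalization, other pseudocounts and filters, no trend, a replicate block and each array left out. With 2 arrays per preparation, array number limits precision. Named genes were all 10 members and, of every other list, up to 5 called genes with the largest difference, or the 2 with the smallest p. Cell type genes meeting it are named only where a result turns on them. The members and lists were chosen with earlier results of these data known. Plots used matplotlib 3.10.9 under Python 3.11.15.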

Additional observations from a re-analysis of the deposited data

Results flagged for a closer look

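Within-preparation differences between arrays 1 and 0 had opposite signs for 4 members, each resting on 1 array against 1, and the difference between the preparations was not tested, since no residual degree of freedom is left. Fos differed by −0.38 within cDNA and 0.98 within aRNA. Arc differed by 0.0784 and −2.14 in the same order, with aRNA array 1 under background. Fosb differed by 0.47 (both cDNA arrays under background) and −0.17, and Dusp1 by −0.0353 and 0.31. Junb differed between cDNA and aRNA by 0.0431 on the arrays numbered 1 and by −0.34 on those numbered 0, which was likewise not tested.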

How the results depend on the processing

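Between the preparations, 2 member probe sets were called higher under the alternatives run on the filtered table, and 3 with no filter. The count called lower was 2 and fell to 1 without an intensity trend (Fos, limma adjusted p = 0.0856) and under a filter at the 75th percentile, for which Btg2 is no longer tested. With an array left out in turn it ranged from 1 to 2. Nr4a1 was called lower with median centring (−1.70, limma adjusted p = 0.0413), without cDNA array 1 (−2.34) and with the array number as a replicate block (limma adjusted p = 0.0416), which gave 3 lower calls and 2 higher. Without cDNA array 0 it was −0.76 and not called (limma adjusted p = 0.226). Junb, not called, turned positive without cDNA array 0 (0.24) or aRNA array 1 (0.05), over a range of −0.53 to 0.24 with each array left out. Deviations of same-numbered arrays correlated at 0.04 over all probe sets tested, so the numbers were not taken as pairs. Between the numbers no member was called by limma under any alternative with a test. The share of all probe sets called, 0.0622%, was 0.0355% with median centring, 0.244% with quantile normalization, 0.04% with pseudocount 64, 0.142% with the filter at the 75th percentile, and 0% without a trend or without the preparation term. Leaving out an array there leaves no residual degree of freedom, so the within-preparation differences stand in its place. Between the preparations 43.2% of probe sets tested were called, or 21.2% with no filter. Signal near background limits Fosb, Ier2 and Egr3 most.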
